A study of Mus musculus with 4 samples.

Results

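The insulin and insulin-like growth factor (IGF) signalling genes were followed in ribosome footprint libraries from dorsal root ganglia (DRG) of mice, where the cell bodies of sensory neurons lie. They are 10 genes, taken by gene symbol from the 48431 genes of the deposited table: the ligands Igf1 and Igf2, the receptors Insr, Igf1r and Igf2r, the receptor substrates Irs1 and Irs2, and the secreted binding proteins Igfbp4, Igfbp5 and Igfbp7. All 4 libraries belong to 1 group: per the labels, male wild-type SW mice that received methylglyoxal (MGO), a reactive by-product of glycolysis, intraperitoneally at 2 mg/kg over 6 days. The treatment protocol of these samples, however, describes saline, so the labels contradict each other, and the treatment entry was followed in naming them. No untreated libraries were analysed here, so no effect of methylglyoxal can be read from these values, and the comparisons are between genes and between libraries of the group.

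Insulin and the IGFs bind receptor tyrosine kinases encoded by Insr and Igf1r. The activated receptors phosphorylate the docking proteins IRS1 and IRS2, which recruit PI3 kinase and, through it, AKT. The receptor encoded by Igf2r has no kinase: it binds IGF2 and mannose 6-phosphate and delivers its cargo to lysosomes. The IGF binding proteins hold the ligands in the extracellular space and are cut by proteases. In sensory neurons, insulin and IGFs are known as survival and growth factors for axons.

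A footprint is the stretch of mRNA covered by a ribosome, here RNA of 28 to 34 nt, so the sequences of related genes decide whether a footprint can be given to 1 of them. The stretches below are 28 bases of coding sequence from the GENCODE M21 transcripts (GRCm38), 5′ to 3′, chosen because they hold the longest stretch that 2 paralogs have in common, and the identical bases are in capitals. The receptor pair comes from chr7:68187026-68187053 (plus strand) and chr8:3192739-3192766 (minus strand), the substrate pair from chr1:82289828-82289855 and chr8:11007657-11007684 (both minus strand), and the ligand pair from chr10:87913711-87913738 (plus strand) and chr7:142654341-142654368 (minus strand), all within coding exons.
Igf1r: tgccTGTGGCTCCAACAGCTGGAacatg
Insr: tgctTGTGGCTCCAACAGCTGGActgtg
Irs1: gaaCTTCTTCTTCATCGAGGTGGGgcgt
Irs2: cagCTTCTTCTTCATCGAGGTGGGccgt
Igf1: ctggagatgTACTGTGCCccactgaagc
Igf2: ctggagacaTACTGTGCCacccccgcca

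The longest identical stretch was 19 bases between Igf1r and Insr, 21 between Irs1 and Irs2 and 9 between Igf1 and Igf2, and 14 or 15 bases between each pair of the 3 binding protein genes. No exact run as long as the shortest footprint was therefore common to paralogs among the 10 genes. Coding windows of 28 bases that also occur in a transcript of another gene were found for 3 of the 10 genes. In Insr they were 2 of 4089 windows, shared with Insrr, the orphan relative of the insulin receptor. In Irs1 they were 5 of 3666, shared with Irs4. The first shared window of Irs1 is shown because it marks where a footprint could not be told apart.
Irs1 and Irs4 (chr1:82289773-82289800, minus strand): TGGATGCAAGTGGATGACTCCGTGGTGG

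The third gene was Igf2, of which 95.4% of the windows (521 of 546) also lie in Gm49394, an annotated coding gene on the same strand that overlaps it. Gm49394 has no row under this symbol in the deposited table. Genes annotated on the opposite strand overlap Insr, Igf2r, Irs1, Irs2, Igf1, Igf2 and Igfbp7, and whether reads were counted by strand is not given in the sources used here. Of these, Polr2b, which overlaps Igfbp7 and encodes a subunit of RNA polymerase II, had 72.7 to 76.6 CPM (reads per 1000000 reads of a library, not divided by gene length). The noncoding Airn, which overlaps Igf2r, had at most 2.01 CPM.

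The libraries held 2610536 to 3753014 reads, recovered from the step of which the values are whole multiples. Their counts fell into 2 near-identical pairs, replicates 1 and 2 and replicates 3 and 4, with a chi-square per degree of freedom of 1.03 and 1.05 within the pairs and 3.29 to 4.08 between them. Each pair was counted as 1 sample, so every mean ± SD below has n = 2 and leaves out the spread within a pair. Whether separate animals gave the replicates is not labelled, and all spread and p-values measure only the difference between these libraries, which may be technical. Markers of the ganglion were present: all 10 sensory neuron genes, all 6 satellite glia genes and all 8 Schwann cell genes chosen for this check averaged 1 CPM or more, the level called detected. Skeletal muscle markers were present too, all 7 of them, and in bulk tissue fewer cells of a type and less RNA per cell cannot be told apart.

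The 10 genes were all detected, and together they took 0.182% to 0.188% of the reads of a library. Levels are compared between genes per kb of coding length. The median over the 10 genes was 49.9 CPM per kb, beside 11.2 over the 13838 detected genes with a coding length. Summed by role, the 3 binding protein genes reached 1444 ± 14.6 CPM per kb, the 2 ligands 356 ± 3.32, the 3 receptors 60.7 ± 1.45 and the 2 substrates 23.7 ± 1.83. These sums follow the choice of genes and carry no test. The binding protein genes held 76.6% ± 0.0943 of the summed level per kb of the 10 genes and the ligands 18.9% ± 0.0290. Without division by length, the receptors lay above the ligands, at 356 ± 1.48 against 199 ± 1.82 summed CPM, since the receptor genes are much longer.

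**Figure D1:**
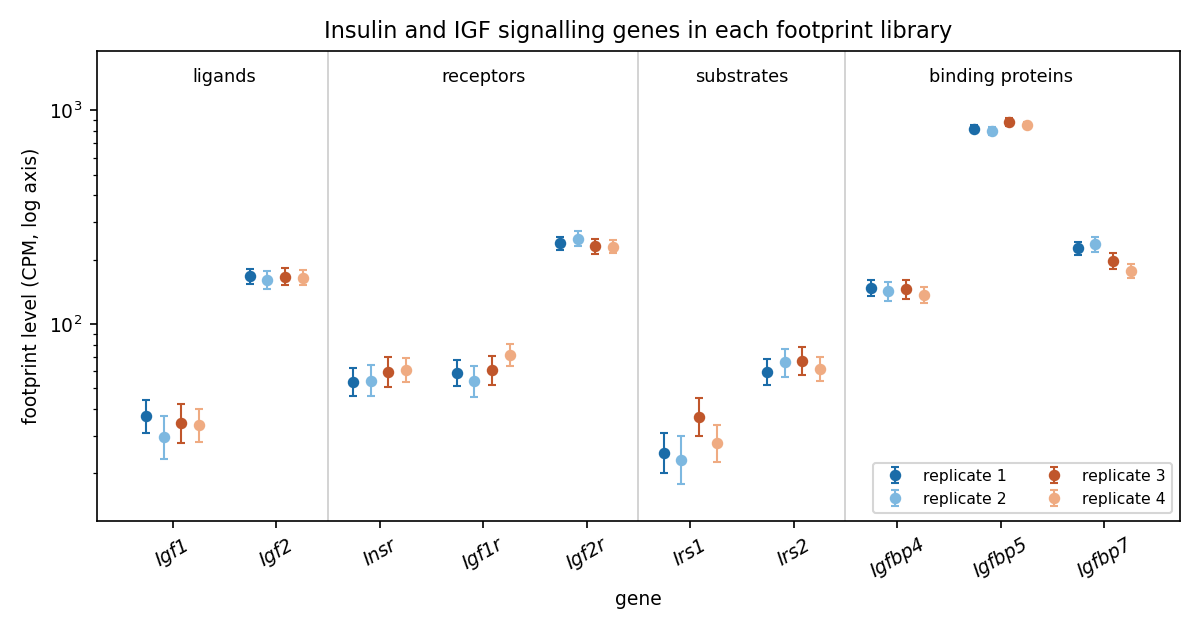
Footprint level in CPM (log axis) of the 10 genes in each of the 4 libraries, grouped by role; points are libraries and bars are exact 95% Poisson intervals of the read count. Igfbp5 stands above the other genes at 800 to 883 CPM, and Irs1 and Igf1 are lowest at 23.2 to 37.0 CPM.

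Of the ligands, Igf1 lay well below Igf2 in every library, 0.238-fold per kb. Fold values between genes, here and below, are 2 raised to the mean difference of log2(CPM per kb + 1). They therefore depart slightly from the plain ratios of the levels. Igf2 (ENSMUSG00000048583.16, chromosome 7, 142650766 to 142666816, minus strand), the fetal growth factor gene that is imprinted in most tissues, had 167, 161, 167 and 165 CPM in replicates 1 to 4. These values are almost level, with a highest over lowest ratio of 1.04. Igf1 (ENSMUSG00000020053.18, chromosome 10, 87858265 to 87937042, plus strand), the growth factor gene driven by growth hormone in liver, had 37.0, 29.6, 34.5 and 33.6 CPM, from 78 to 129 reads. Its exact 95% Poisson intervals overlapped in all 4 libraries, from 23.4 CPM at the lowest bound to 43.9 at the highest. Per kb of coding length, Igf1 stood at 68.0 ± 1.03 and Igf2 at 288 ± 2.29 CPM. The difference, Igf1 minus Igf2, was -2.07 ± 0.02 on the scale of log2(CPM per kb + 1), with Igf1 lower in 4 of 4 libraries. In replicates 1 to 4 it was -1.95, -2.21, -2.05 and -2.07, with an SD of 0.11 over the 4 libraries. Of the reads of both genes, 15.5% to 18.1% were of Igf1, where equal ribosome density over the coding lengths would give 46.3%. The exact binomial 95% intervals of this share reached at most 21.2%. Exact sign-flip permutation tests (two-sided) of this and the other 6 gene contrasts cannot pass 0.05 here: the smallest p is 0.5 over 2 pair means and 0.12 over 4 libraries, and every contrast gave 0.5 over the pair means.

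The insulin genes themselves were listed at 0: Ins1 and Ins2 had 0 reads in all 4 libraries, as did the relaxin family genes Insl3 and Insl5. A count of 0 allows up to 3 reads, which is 0.799 to 1.15 CPM depending on the library, and covers counting error only. Insl6, another gene of that family, had 1.28 CPM over the libraries (17 reads in all), and Rln1 and Rln3 had 1 read each.

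Of the receptors, Igf1r and Insr had overlapping levels and Igf2r stood above both. Insr (ENSMUSG00000005534.10, chromosome 8, 3122061 to 3279617, minus strand), the insulin receptor gene, had 53.6, 54.3, 59.8 and 61.0 CPM. Igf1r (ENSMUSG00000005533.10, chromosome 7, 67952827 to 68233668, plus strand), the gene of the receptor that binds both IGFs, had 59.1, 53.9, 60.9 and 71.7 CPM. The values of the 2 genes overlap. Per kb of coding length Igf1r had 14.9 ± 1.69 and Insr 13.9 ± 1.11 CPM. Igf1r minus Insr was 0.09 ± 0.04 on the log2 scale, with Igf1r higher in 3 of 4 libraries. The share of Igf1r among the reads of both was 49.8% to 54.0%. In each of the 4 libraries the exact 95% binomial interval of that share held 49.9%, the share at equal density. The lowest bound was 43.9% and the highest 58.5%. With the full exon length in place of the coding length the direction turned, to -0.15.

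Igf2r (ENSMUSG00000023830.13, chromosome 17, 12682406 to 12769664, minus strand), which encodes the IGF2 and mannose 6-phosphate receptor, had 238, 251, 231 and 230 CPM. It stood at 31.9 ± 1.34 CPM per kb. Igf2r exceeded Igf1r by 1.05 ± 0.21 on the log2 scale per kb, in 4 of 4 libraries, a 2.07-fold difference. Without division by length the difference was 1.94, and with exon length 2.51. Igf2r held 76.2% to 82.3% of the reads of both, above the 64.5% of equal density in every library, with a lowest exact bound of 73.6%. The orphan receptor gene Insrr had 28 reads over the 4 libraries, a mean of 2.11 CPM or 0.541 CPM per kb.

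Of the substrates, Irs2 lay above Irs1. Irs2 (ENSMUSG00000038894.7, chromosome 8, 10984681 to 11008458, minus strand) had 59.6, 66.1, 67.0 and 61.6 CPM, and Irs1 (ENSMUSG00000055980.2, chromosome 1, 82233101 to 82291416, minus strand) had 24.9, 23.2, 36.8 and 27.7 CPM. No Irs1 value reached the Irs2 values. Per kb, Irs1 had 7.62 ± 1.57 and Irs2 16.0 ± 0.257 CPM. Irs1 minus Irs2 was -1.0 ± 0.23 on the log2 scale, with Irs1 lower in 4 of 4 libraries. Irs1 made up 26.0% to 35.4% of the reads of both, with exact bounds between 20.5% and 41.4%, below the 48.2% of equal density. Irs1 was the only one of the 10 genes below the median of detected coding genes per kb, at the 39.6th percentile.

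Of the binding proteins, Igfbp5 stood far above the others. Igfbp5 (ENSMUSG00000026185.8, chromosome 1, 72857932 to 72874884, minus strand), whose protein also binds extracellular matrix, had 821, 800, 883 and 855 CPM. With 1033 ± 50.7 CPM per kb it ranked 43rd among the 13838 detected coding genes. Igfbp4 (ENSMUSG00000017493.12, chromosome 11, 99041244 to 99054392, plus strand), whose protein holds IGFs until the protease PAPP-A cuts it, had 148, 142, 146 and 137 CPM. Igfbp7 (ENSMUSG00000036256.13, chromosome 5, 77349240 to 77408041, minus strand), a low-affinity IGF binder of vessel walls, had 226, 236, 198 and 178 CPM. Replicates 3 and 4 lay below replicates 1 and 2 in Igfbp7, and above them in Igfbp5.

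Per kb of coding length, Igfbp5 exceeded Igfbp4 (188 ± 3.62 CPM per kb) by 2.45 ± 0.10 on the log2 scale, 5.47-fold, in 4 of 4 libraries. It exceeded Igfbp7 (223 ± 32.5 CPM per kb) by 2.21 ± 0.28, 4.64-fold, in 4 of 4 libraries, but with the full exon length this difference turned to -0.30, since the annotated exons of Igfbp5 hold much more untranslated sequence. Igfbp7 exceeded Igfbp4 by 0.24 ± 0.18, in 4 of 4 libraries, and by 0.54 without division by length and 2.37 with exon length. The values of these 2 genes per kb overlapped between libraries, with the lowest of Igfbp7 at 189 and the highest of Igfbp4 at 194 CPM per kb. The share of Igfbp7 among the reads of both was 56.5% to 62.4%, and in replicates 3 and 4 its exact interval held the 55.2% of equal density.

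Among the binding protein genes outside the 10, Igfbp6, whose protein prefers IGF2, came next to Igfbp5 at 546 CPM per kb, from 458, 454, 323 and 324 CPM. Igfbp3, the main carrier of IGFs in serum, stood at 91.9 and Igfbp2 at 59.2 CPM per kb. Igfbp1 was listed at 0 in all 4 libraries. Igfals, which encodes the acid-labile partner of the serum complex, and Igfbpl1 were below 1 CPM.

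**Figure D2:**
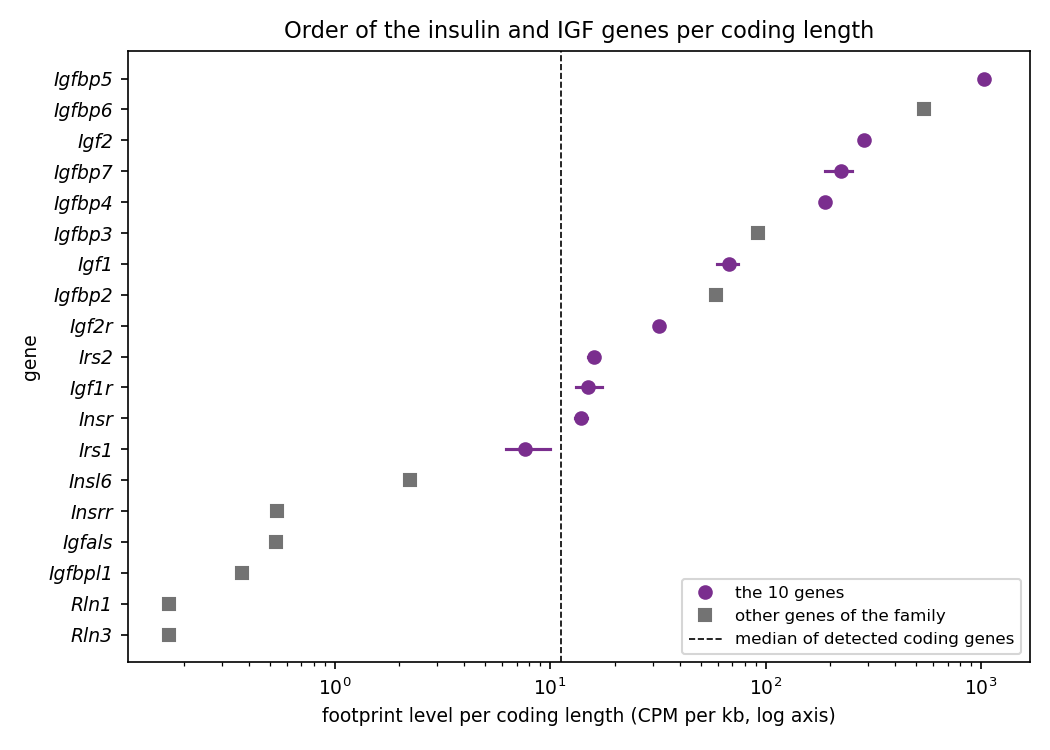
Mean footprint level per kb of coding length (CPM per kb, log axis) of the 10 genes (circles, with a line over the range of the 4 libraries) and of the other ligand, receptor and binding protein genes above 0 (squares). The order runs from Igfbp5 at 1033 to Irs1 at 7.62 CPM per kb, and Irs1 alone of the 10 lies left of the dashed median of 11.2.

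In the order of levels per kb, Igfbp5, Igf2, Igfbp7, Igfbp4, Igf1, Igf2r, Irs2, Igf1r, Insr and Irs1, most neighbours did not overlap in any library. The exceptions were Igfbp7 with Igfbp4, Irs2 with Igf1r and Igf1r with Insr. Irs2 minus Igf1r kept its sign in 3 of 4 libraries. The binding proteins, Igf2 and Igf1 lay at the 88.5th percentile of detected coding genes or above, Igf2r at the 76.3rd and Insr, Igf1r and Irs2 between the 55.7th and the 59.8th.

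Between the libraries, 1 of the 10 genes, Igfbp7, differed in its share of reads beyond counting error. A chi-square test of equal read share over the 4 libraries was run on the 15271 detected genes, with Benjamini-Hochberg adjustment over all of them, and 7.67% of these genes passed at 0.05. Among the 4820 genes whose means lie between the lowest and the highest of the 10, 15.3% passed, so 1 of 10 is near the background. Igfbp7 had 788, 622, 517 and 667 reads in replicates 1 to 4. Its mean was 188 CPM in replicates 3 and 4 and 231 in replicates 1 and 2, a log2 difference of -0.30, replicates 3 and 4 over 1 and 2 (chi-square test, adjusted p = 1.12e-05). Without replicate 4 it no longer passed the chi-square test (adjusted p = 0.127), and no gene of the 10 did, with 3 of them at an unadjusted p under 0.05. In that setting 5.02% of all genes tested passed. Without each other replicate in turn, the chi-square test of Igfbp7 gave adjusted p of 8.02e-06 to 0.00091.

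Igfbp5 missed the threshold with an adjusted p of 0.0524. Irs1 and Igf1r had adjusted p of 0.127 and 0.207 in the chi-square test. Irs1 was highest in replicate 3, at 36.8 CPM (exact Poisson interval 29.8 to 44.9), overlapping the interval of replicate 4 (22.6 to 33.6). Igf1r was highest in replicate 4, at 71.7 CPM (63.4 to 80.8), overlapping the interval of replicate 1 (51.3 to 67.7). The other 6 genes had adjusted p of 0.683 to 0.981. Igf2 had the lowest SD of log2 values over the 4 libraries, 0.024, beside a median of 0.094 over genes within a factor of 2 of its level, and Irs1 the highest, 0.28 beside 0.16.

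**Figure D3:**
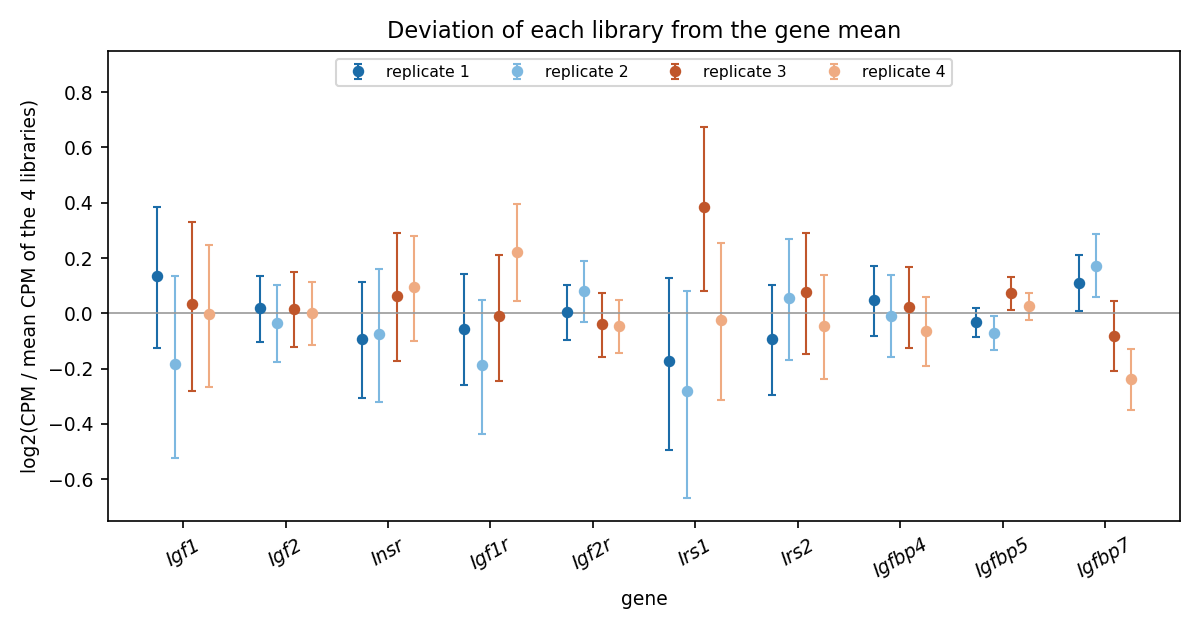
Deviation of each library from the gene mean, as log2 of CPM over the mean CPM of the 4 libraries, with exact 95% Poisson intervals of the read count. Replicates 3 and 4 of Igfbp7 lie below 0 and replicates 1 and 2 above it, Igf2 stays near 0 in all 4 libraries, and the highest point is Irs1 in replicate 3, at 36.8 CPM.

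Markers of other cells moved between the same libraries, and their levels are given as sums per library. Skeletal muscle markers (7 of 7 detected) summed to 2107 to 2123 CPM in replicates 3 and 4 and 3435 to 3492 in replicates 1 and 2, and 7 of 7 passed the test with a lower mean in replicates 3 and 4. Mural cell markers (6 of 6 detected), of the contractile and supporting cells of vessels, summed to 519 to 537 CPM in replicates 3 and 4 and 595 to 621 in replicates 1 and 2. Of these, 2 of 6 passed, both lower in replicates 3 and 4: the smooth muscle genes Acta2 and Myh11. Endothelial markers (6 of 6 detected) summed to 301 to 308 CPM in replicates 3 and 4 and 289 to 308 in replicates 1 and 2, and 0 passed. Adipocyte markers (4 of 5 detected) summed to 126 to 136 CPM in replicates 3 and 4 and 200 in replicates 1 and 2, with Plin1 and Fabp4 lower. Markers of lymphocytes and neutrophils (4 of 5 detected) summed to 221 to 235 CPM in replicates 3 and 4 and 748 to 749 in replicates 1 and 2, with the neutrophil genes S100a8 and S100a9 lower, while the T cell marker Cd3e had 1 read in all. Red blood cell markers (4 of 4 detected) summed to 357 to 380 CPM in replicates 3 and 4 and 439 to 452 in replicates 1 and 2, with Hba-a1 lower. Genes listed as spinal cord markers (4 of 6 detected) summed to 64.7 to 69.3 CPM in replicates 3 and 4 and 82.3 to 95.7 in replicates 1 and 2, with Gfap lower. Gfap (mean 41.2 CPM) and Slc1a2 (23.8) were the highest of this list, and Mobp, Olig2 and Opalin had only 1.74, 0.620 and 0.301. Aqp4 went the other way, from 8.86 in replicates 1 and 2 to 11.8 in replicates 3 and 4. Whether spinal cord tissue was present was not tested. The sums of Schwann cell markers (8 of 8 detected) were 27985 to 28065 CPM in replicates 3 and 4 and 23032 to 23147 in replicates 1 and 2, where 4 genes passed as higher in replicates 3 and 4 and 1 as lower. Fibroblast markers (7 of 7 detected) summed to 29670 to 29705 CPM in replicates 3 and 4 and 26556 to 26580 in replicates 1 and 2, where the collagen genes Col1a1, Col1a2 and Col3a1 and the matrix gene Sparc passed as higher, Dcn passed as lower, and Lum and Pdgfra did not pass. Satellite glia markers (6 of 6 detected) summed to 1113 to 1116 CPM in replicates 3 and 4 and 1018 to 1025 in replicates 1 and 2. Only 2 of these genes passed, in opposite directions. Cadm1 was higher, with a mean of 470 CPM in replicates 3 and 4 and 362 in replicates 1 and 2. Glul was lower, at 197 against 237 CPM. For sensory neurons the sums were 12424 to 12496 CPM in replicates 3 and 4 and 12129 to 12183 in replicates 1 and 2. Of these 10 genes, Scn10a alone passed, with a mean of 1112 CPM in replicates 3 and 4 and 927 in replicates 1 and 2. Bone and cartilage markers summed to 408 to 415 CPM in replicates 3 and 4 and 393 to 402 in replicates 1 and 2, and 0 of 5 passed. Macrophage sums went the other way, with 427 to 439 CPM in replicates 3 and 4 and 455 to 482 in replicates 1 and 2, and 0 of 6 genes passed. Marker genes other than the highest and lowest of each list were named after their values were seen. The part of these cells in the values of Igfbp7 was not tested.

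**Figure D4:**
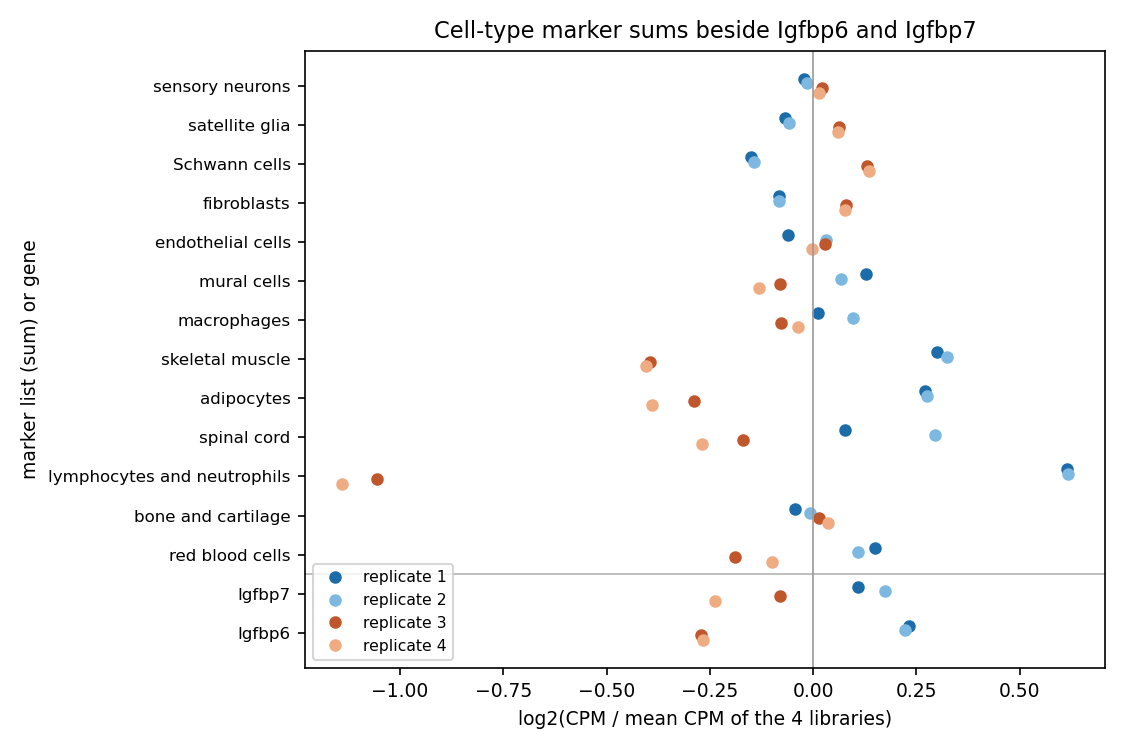
Log2 of CPM over the mean of the 4 libraries, for the summed markers of each cell type and for Igfbp7 and Igfbp6. The sums for skeletal muscle, adipocytes, mural cells, macrophages, spinal cord, red blood cells, and lymphocytes and neutrophils lie right of 0 in replicates 1 and 2, as Igfbp7 and Igfbp6 do. The Schwann cell, fibroblast, satellite glia, sensory neuron, and bone and cartilage sums lie left of it.

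Irs1 had the largest SD over libraries among the 10. The genes whose deviations over the 4 libraries were nearest to those of Irs1, among 1495 genes averaging 100 CPM or more, were Ccdc107, Rpl27a, Cdh11, Adam10 and Tmem132e, with root mean square differences of 0.085 to 0.099 on the log2 scale. With 4 libraries in 2 pairs this is a description of these libraries only.

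Downstream and around the 10 genes, 77 further genes of the pathway were read from 12 lists. Of these, 63 were detected, 9 were above 0 but below 1 CPM and 5 were at 0, and the detected ones had a median of 11.5 CPM per kb, beside 11.2 over all detected coding genes. Of the list of binding protein proteases and their inhibitors, Htra1, a secreted serine protease that cuts IGF binding proteins, led with 187 CPM per kb. Ide, the insulin-degrading enzyme gene, was placed in the same list, though its named target is insulin, and stood at 32.1. Pappa2, a protease gene, had 2.52 CPM per kb, and Stc2, an inhibitor of PAPP-A, 1.21. The adaptor genes Dok4, Grb2 and Gab1 stood at 55.7, 45.3 and 44.7 CPM per kb, above Irs1 and Irs2, and Sh2b2 was the lowest detected gene of this list at 1.45.

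The kinase branch was detected in full, with all 6 PI3K subunit genes and all 7 kinase genes above 1 CPM. Pik3r1, the regulatory p85alpha subunit gene, had 54.7 CPM per kb, against 13.2 for Pik3r3 and 10.3 for Pik3r2. The catalytic subunit gene Pik3cb was the lowest of the PI3K list at 2.76, and the other catalytic genes of the list lay between it and Pik3r2. Gsk3b, a kinase gene whose product AKT inhibits, stood at 118, Sgk1 at 39.6 and Pdpk1, which encodes the kinase that activates AKT, at 32.7 CPM per kb. Akt2, the AKT isoform gene of insulin-responsive tissues, was the lowest of this list at 9.29. Of the FOXO transcription factor genes, which insulin signalling restrains, Foxo3 had 40.9, Foxo1 20.5, Foxo4 4.36 and Foxo6 0.742 CPM per kb.

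Of the negative regulators, 14 of 15 were detected, with the receptor phosphatase gene Ptprf highest at 58.9 and Inpp5k, a lipid phosphatase gene, at 38.2 CPM per kb, and Phlpp2 was lowest of these at 3.61. Ghr, the growth hormone receptor gene, stood at 15.6 CPM per kb, Stat5b at 9.78, Stat5a at 5.70 and Jak2 at 3.56. Of the RNA-binding proteins named for Igf2 mRNA, Igf2bp2 alone was detected, at 1.69 CPM per kb. Among the glucose transport genes, Lnpep, which encodes an aminopeptidase of GLUT4 vesicles, had 76.7 CPM per kb, Slc2a4, the GLUT4 gene, 11.5, Tbc1d4 5.96 and Tbc1d1 3.36.

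Of these 63 detected genes, 6 passed the test of equal read share over the libraries, against 7.67% of all genes tested. The mean over replicates 3 and 4 was higher than over replicates 1 and 2 in 4 of the 6 (4.35% of all genes passed with this direction). Among these were Ptprf, with 307, 292, 367 and 376 CPM in replicates 1 to 4, Htra1, with 242, 269, 283 and 285, and Gsk3b, with 142, 140, 162 and 171. In each of these 3 genes both values of replicates 3 and 4 lay above both of replicates 1 and 2. The mean was lower in Igfbp6 (chi-square test, adjusted p = 3.32e-28) and in Gab1, which had 110, 107, 84.7 and 87.1 CPM (3.32% of all genes passed with this direction). In Igfbp6, replicates 3 and 4 at 323 and 324 CPM did not overlap replicates 1 and 2 at 458 and 454. The marker sums given above also moved between these libraries, and their part in these genes was not tested. Without replicate 1 or without replicate 4, 3 genes passed, with Igfbp6 and Ptprf in both, beside 5.38% and 5.02% of all genes tested.

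**Figure D5:**
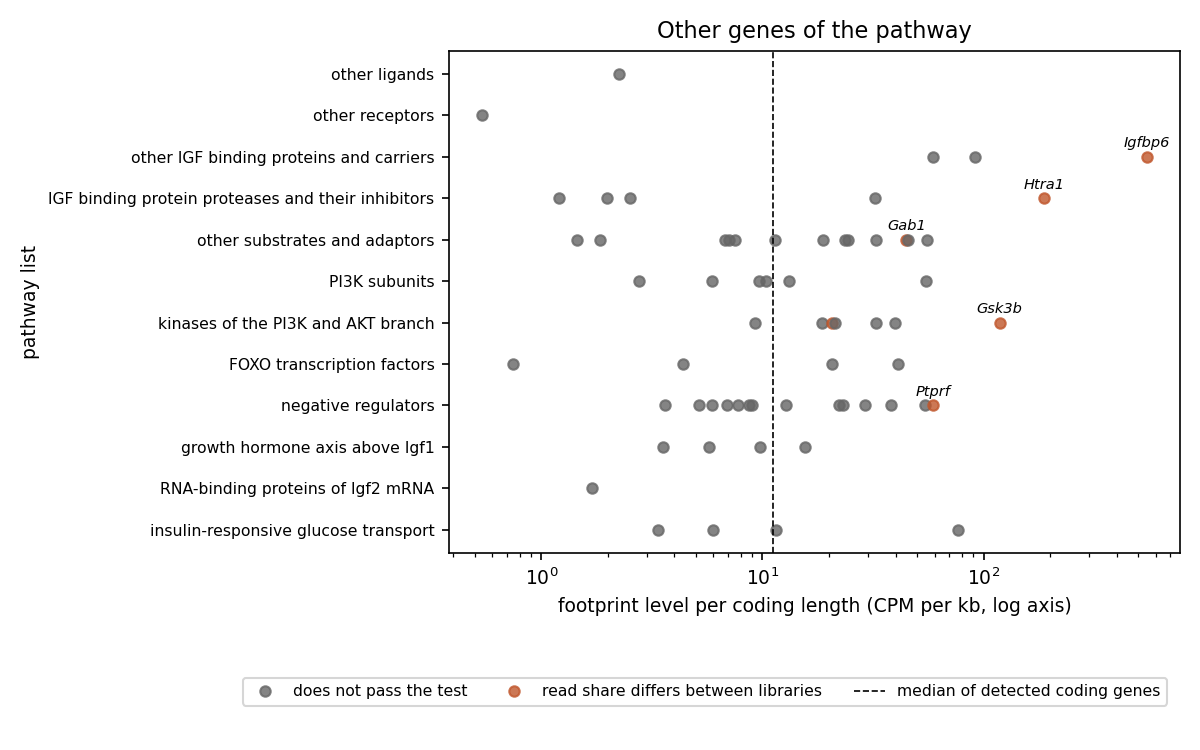
Mean footprint level per kb of coding length (CPM per kb, log axis) of the 63 other detected pathway genes by list; orange points are the 6 genes whose read share differed between the libraries, and the dashed line is the median of detected coding genes, 11.2. Igfbp6 is the highest point at 546 and Htra1 the next at 187 CPM per kb.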

How the data were processed

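Ribosome footprints of 4 libraries of 1 group were analysed. Spin columns, rRNA depletion and 15% gels yielded the 28 to 34 nt footprints, which became small RNA libraries, per the labels' protocols. Per the submitters' processing notes, which name no roles, the tools were Cufflinks 2.2.1, Bowtie2 2.2.9, TopHat2 2.1.1 and FastQC 0.11.5, with GRCm38. Not given in the sources used here: annotation, counting rule, strand setting and treatment of multiple matches. The authors' deposited columns are named TPM, but the values are whole multiples (tolerance 0.02 steps) of 1 step per library, independent of gene length, for 96.5% to 97.0% of values above 0. They were therefore used as CPM, with reads recovered from the step.

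Rows with the same symbol were summed. GENCODE M21 gave coordinates and the longest coding length (48052 of 48431 IDs matched). A level per kb counts every read of a gene as coding; this was not checked. Gene contrasts used log2(CPM per kb + 1), 2 pair means and exact sign-flip permutation tests; read shares have exact Clopper-Pearson intervals, and counts exact Poisson ones, covering counting error only. Equal read share was tested by chi-square over 15271 genes with Benjamini-Hochberg adjustment, and checked on simulated data. Named are all 10 genes; every further ligand, receptor and carrier; of each other list the 3 highest, the lowest detected and those at 0; the highest and lowest markers; and the 5 genes nearest to the most variable member. Some results for genes and a sequence within this rule are not reported here. Members and lists were chosen with earlier results of these data known. Alternatives left out each replicate and changed pseudocount, length, scaling, minimum and threshold. Software was matplotlib 3.10.9, scipy 1.17.1, pandas 2.3.3 and numpy 2.4.6 under Python 3.11.15.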

Additional observations from a re-analysis of the deposited data

Results flagged for a closer look

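In a group of 4 libraries, 3 of the 48 genes examined had 1 library far from the others, by Dixon's criterion at its 95% critical value, and chance alone gives about 1 in 20 per gene. None of the 10 insulin and IGF genes was among them. Igfbp2 was at 46.3 CPM in replicate 2, with the other libraries at 56.3 to 57.6. Akt2 was at 12.3 CPM in replicate 1, with the others at 13.7 to 13.9, and Tbc1d1 was at 10.9 CPM in replicate 1, with the others at 13.0 to 13.3. In none of the 3 did the read share differ between the libraries beyond counting error (adjusted p of 0.586, 0.979 and 0.918, chi-square test).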

How the results depend on the processing

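The means of the 7 gene contrasts kept their direction under both pseudocounts, without each replicate and when averaged over 4 separate libraries, although Igf1r minus Insr was -0.0065 in replicate 2 itself. With exon length, Igf1r minus Insr turned to -0.15 and Igfbp5 minus Igfbp7 to -0.30, since exon length counts untranslated sequence. Without single replicates the contrasts ranged from 0.046 to 0.14 (Igf1r minus Insr), 0.99 to 1.11 (Igf2r minus Igf1r), -1.06 to -0.94 (Irs1 minus Irs2), -2.14 to -2.0 (Igf1 minus Igf2), 2.44 to 2.46 (Igfbp5 minus Igfbp4), 0.21 to 0.27 (Igfbp7 minus Igfbp4) and 2.19 to 2.24 (Igfbp5 minus Igfbp7). The log2 difference of summed levels per kb, binding proteins minus ligands, was 2.02 and came to 2.58 without division by length, 3.38 with exon length and 1.94 with the principal isoform's coding length, which was chosen after seeing the data (2.00 to 2.04 without single replicates). Ligands minus receptors was 2.53, came to 2.46 with a pseudocount of 5 and 2.61 with the principal isoform, and turned to -0.84 without division by length and -0.048 with exon length (2.5 to 2.56 without single replicates). Receptors minus substrates was 1.33, and 1.95 without division by length (1.26 to 1.40 without single replicates).

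Of the 10 genes, 0 to 1 differed between the libraries without single replicates, where 5.02% to 6.76% of all genes tested passed. With median-of-ratios scaling 2 did (Igfbp5 joined Igfbp7), beside 7.67% of all genes tested. The same 2 did with a minimum mean of 10, beside 12.7%. Of the other pathway genes, 3 to 6 differed without single replicates. With an adjusted p under 0.01 it was 2, beside 5.3% of all genes tested. Over all genes it was 766 to 1033 without single replicates. The cause of these moves was not tested. The detected pathway genes numbered 62 to 64 without single replicates. Levels in CPM moved with the denominator, the protein-coding reads (77.9% to 79.5% of all). No paired analysis was possible because the labels give 1 group. With 78 to 129 reads for Igf1 and 61 to 104 for Irs1, depth limits the precision of these genes most.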
